A study of Mus musculus with 33 samples.

Results

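LSD1 binding was mapped in C2C12 cells, a mouse muscle cell line whose growing myoblasts leave the cell cycle and form myotubes once confluent and low in serum. Each state had a single list of LSD1 peaks, made by chromatin immunoprecipitation with an antibody against LSD1 followed by sequencing (ChIP-seq) of chromatin sonicated to 250 bp on average. Myotubes were fully differentiated cells taken after 96 h in 2% horse serum, and myoblasts were growing cells in 10% fetal bovine serum. Both LSD1 groups were the same established line, and the labels give no transgene or added agent for either. ING1, read below as another factor, was mapped through a Flag tag in cells ectopically expressing it. The peaks compared were those on the 19 autosomes, 16361 in myotubes and 4419 in myoblasts, 20780 of the 396699 autosomal peaks in the 9 factor lists of the series.

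LSD1, encoded by Kdm1a, is a demethylase that removes mono- and dimethyl groups from lysine 4 of histone H3 (H3K4) and works in a complex with CoREST and histone deacetylases. H3K4 methylation marks promoters and enhancers, and MLL proteins with Menin and Wdr5 place it. ING1 reads the trimethylated form and belongs to Sin3A deacetylase complexes. LSD1 is known to be needed for the differentiation of C2C12 myoblasts.

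A myoblast peak was called kept when it overlapped a myotube peak by at least 1 bp and lost when it did not. A myotube peak was called gained when no myoblast peak overlapped it, and kept otherwise. By this definition 14471 of 16361 myotube peaks were gained (88.4%, exact binomial 95% interval 87.9 to 88.9) and 1890 were kept. Of the 4419 myoblast peaks, 2420 were lost and 1999 were kept (45.2%, interval 43.8 to 46.7). The kept share was 17.4% when only the 4419 widest myotube peaks were used, so that both lists were equally long. These shares define the classes, and nothing was read from them. With 1 list per state there was no spread between replicates, so no difference between the states or classes was tested, and intervals cover counting error only. The lists carry no read counts or heights: the depth behind each is unknown, and a state difference in binding cannot be told apart from one in depth or enrichment.

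Gained and kept sites of LSD1 were arranged differently. Of the gained sites 25.3% stood alone and 48.9% lay in runs of 5 or more peaks, the largest with 84 peaks along 212.3 kb. No peak of any of the 7 other lists, most of which came from myoblasts, overlapped 41.7% of gained sites. Of the kept sites in myotubes 49.3% stood alone, and 78.9% met at least 5 of the other lists. Where a run of 5 or more held 1 kept peak, that peak was usually the first or the last of the run. Lost sites were spaced like the kept myoblast sites, and were narrower.

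Peaks were wider in myotubes than in myoblasts in every class. The median width was 616 bp for gained peaks (order-statistic 95% interval 611 to 621) and 719 bp for kept peaks in myotubes (702 to 734). It was 371 bp for lost peaks (362 to 378) and 432 bp for kept peaks in myoblasts (418 to 442). Gained peaks were narrower than kept myotube peaks on 18 of 19 autosomes, chromosome 7 being the exception at 601 bp against 574 bp. When only the 4419 widest myotube peaks were used, the order turned to 1162 bp for gained and 1119 bp for kept peaks. Lost peaks were narrower than kept myoblast peaks on all 19 autosomes and in each of the 7 settings tried.

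Peaks over 2 kb were found in the myotube list only, at gained and at kept sites. Of the gained peaks 2630 (18.2%) were over 1 kb, 509 over 2 kb and 58 over 5 kb, and of the kept myotube peaks 462 (24.4%), 70 and 5. In myoblasts 20 lost and 69 kept peaks exceeded 1 kb and none exceeded 2 kb. The widest LSD1 peak of myoblasts measured 1707 bp, while the myoblast lists of Menin and MLL3 reached 48033 and 21810 bp. LSD1 in myoblasts had the smallest median width of the 9 lists, and the other 8 had medians between 565 and 727 bp. The total length covered was 13.0 Mb in myotubes, against 1.94 Mb in myoblasts.

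**Figure D1:**
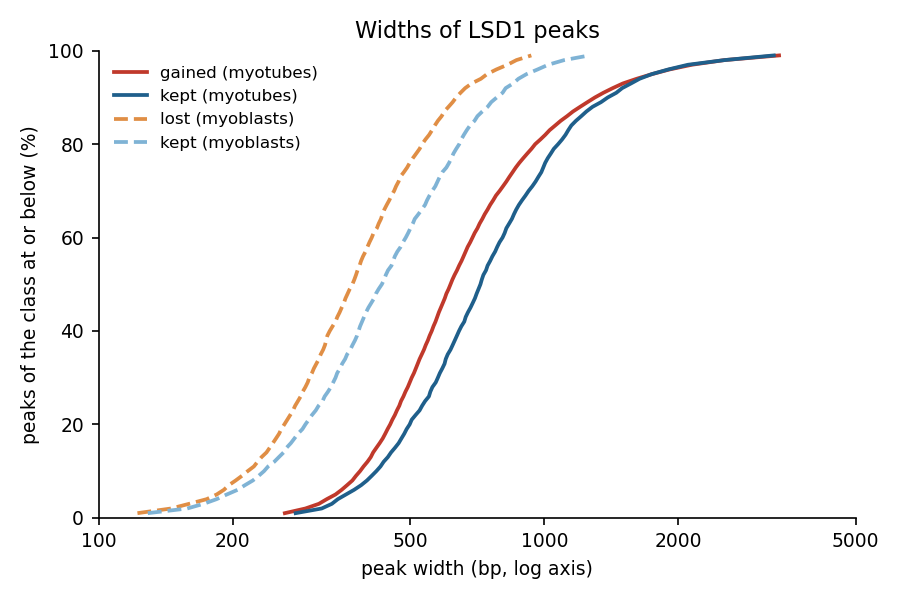
Cumulative share of LSD1 peaks (y axis, % of the class, percentiles 1 to 99) by peak width (x axis, bp, log scale) for gained and kept peaks of myotubes (solid lines) and lost and kept peaks of myoblasts (dashed lines). Both myotube curves lie to the right of both myoblast curves, with medians of 616 and 719 bp against 371 and 432 bp.

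The same site was wider in myotubes. The kept classes formed 2029 overlapping pairs, of which 1711 joined 1 peak of each state. The myotube peak had a median width of 735 bp and the myoblast peak 434 bp, a median ratio of 1.67 (quartiles 1.14 and 2.69). The myotube peak was the wider in 1673 pairs (82.5%), and in most pairs on each of the 19 autosomes. Centres lay a median of 165 bp apart, to the right in 1006 pairs and to the left in 1021, so myotube peaks had no common side. The myoblast peak lay wholly inside the myotube peak in 912 pairs (44.9%), and the reverse held in 102. Widths in both states were only weakly related across the 2029 pairs (Spearman rho 0.10, a description over sites that share their libraries).

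Wider myoblast peaks were kept more often. The share kept was 38.5% in the narrowest 10% of myoblast peaks (54 to 224 bp) and 64.5% in the widest 10% (706 to 1707 bp, interval 59.8 to 68.9). Wider peaks also meet another peak more easily by geometry, and that part was not tested. Few calls sat at the threshold: 55 pairs overlapped by 50 bp or less, with a median myoblast width of 343 bp, and 44 lost peaks lay within 50 bp of a myotube peak, with a median of 363.5 bp. A wider belt held 330 lost peaks within 500 bp of a myotube peak, and counting these as shared raised the kept share to 52.7%.

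Gained peaks lay close to other LSD1 peaks. The nearest other LSD1 peak of myotubes was a median of 1.78 kb from a gained peak and 9.58 kb from a kept peak. A neighbour within 10 kb was found for 74.7% of gained peaks (interval 74.0 to 75.4) and 50.7% of kept peaks (48.4 to 53.0), with the same order on all 19 autosomes. With only the 4419 widest myotube peaks the shares were 70.5% and 30.5%. Within a class, the nearest other gained peak was a median of 1.96 kb away and the nearest other kept myotube peak 140.9 kb away. These distances depend on the number of peaks, and the classes of like size had 95.9 kb (lost) and 118.2 kb (kept, myoblasts). In the myoblast list lost and kept peaks were spaced alike, with 31.0% and 30.3% of them within 10 kb of another and medians of 42.8 and 44.7 kb. The order of those shares was split, with lost higher on 10 of 19 autosomes.

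Spacing in myoblasts had a gap that spacing in myotubes lacked. In myotubes 38.3% of peaks had a neighbour within 1 kb and a further 33.6% between 1 and 10 kb, against 24.4% and 6.25% in myoblasts. The close myoblast peaks formed 569 neighbouring pairs with a median gap of 285 bp. Both peaks were kept in 30.8% of those pairs, 1 of them in 30.6% and neither in 38.7%. A myotube LSD1 peak reached into the gap of 52.5% of the pairs. Menin covered some of that gap in 97.5% of pairs, Wdr5 in 90.2% and Sin3A of myotubes in 87.5%. For comparison, Menin lay at 92.1% of all lost and 94.5% of all kept myoblast peaks. Those shares were 86.7% and 91.8% for Wdr5, and 77.7% and 93.6% for Sin3A.

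**Figure D2:**
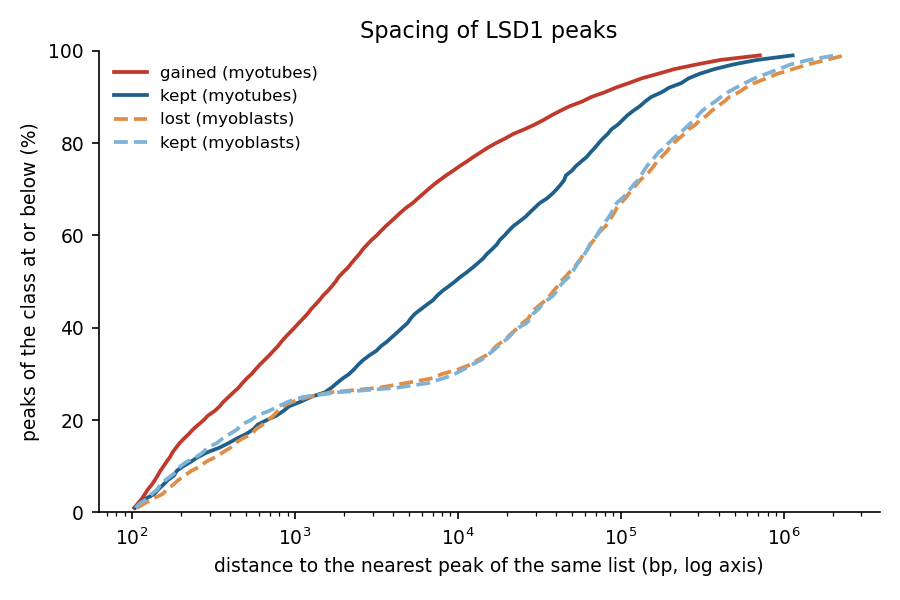
Cumulative share of LSD1 peaks (y axis, % of the class, percentiles 1 to 99) by distance to the nearest other peak of the same list (x axis, bp, log scale). Gained peaks (solid red) lie closest together, kept myotube peaks (solid blue) farther apart, and the 2 myoblast curves (dashed) run together with a plateau between 1 and 10 kb.

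Most gained sites lay more than 10 kb from the old ones. Of the gained peaks 20.1% were within 10 kb of a myoblast LSD1 peak and 61.6% within 100 kb. The other 38.4% were farther from any, and the median distance was 55.9 kb. The shares that an even placement would give were not computed, so these values do not show whether gained sites avoided or favoured old ones. With the wider 50% of each list, 12.6% were within 10 kb. Of the lost peaks, 19.1% had a myotube peak within 1 kb, 39.8% within 10 kb, and 21.2% had none within 100 kb.

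Runs of LSD1 peaks were next described as clusters, joining neighbours of a list that lay 10 kb or less apart. The myotube peaks formed 7041 clusters, of which 2451 held 2 or more peaks and 231 held 10 or more. The myoblast peaks formed 3675 clusters, of which 611 held 2 or more, 6 held 5 or more, and the largest held 11. Clusters of 10 or more contained 28.2% of gained peaks (interval 27.5 to 28.9) and 6.14% of kept myotube peaks (5.10 to 7.32), and gained peaks stood alone in 25.3% of cases, kept ones in 49.3%. With peaks of a list within 1 kb joined first, the shares in clusters of 10 or more were 9.77% and 1.70%, and with only the 4419 widest myotube peaks they were 18.1% and 1.95%. The higher share of gained peaks in clusters of 10 or more held on all 19 autosomes. It also held in each of 4 width classes: from 500 to under 800 bp, 22.0% of gained and 4.44% of kept peaks lay in such clusters, and from 800 bp upwards 42.1% and 8.46%. Under 300 bp the shares were close, 26.3% of 342 gained and 22.6% of 31 kept peaks.

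The larger the cluster, the smaller the share of its peaks kept from myoblasts. The share kept was 20.3% for lone myotube peaks, 17.3% in pairs, 11.6% in clusters of 3 to 4, 6.82% in clusters of 5 to 9 and 2.76% in clusters of 10 or more (interval 2.29 to 3.31). The myoblast list held 6 clusters of 5 or more, the largest of 11 peaks. Whether this bears on the decline was not tested. In contrast, the share of myoblast peaks kept was 45.5% for lone peaks, 43.4% in pairs and 46.7% in clusters of 3 to 4 of that list. It was 66.7% of 27 peaks in clusters of 5 to 9 and 63.6% of the 11 in the largest. Of the 231 clusters of 10 or more, 144 (62.3%) had no kept peak, 71 had 1 and 16 had more. The 16 clusters of 40 or more peaks held 915 peaks, of which 5 were kept.

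**Figure D3:**
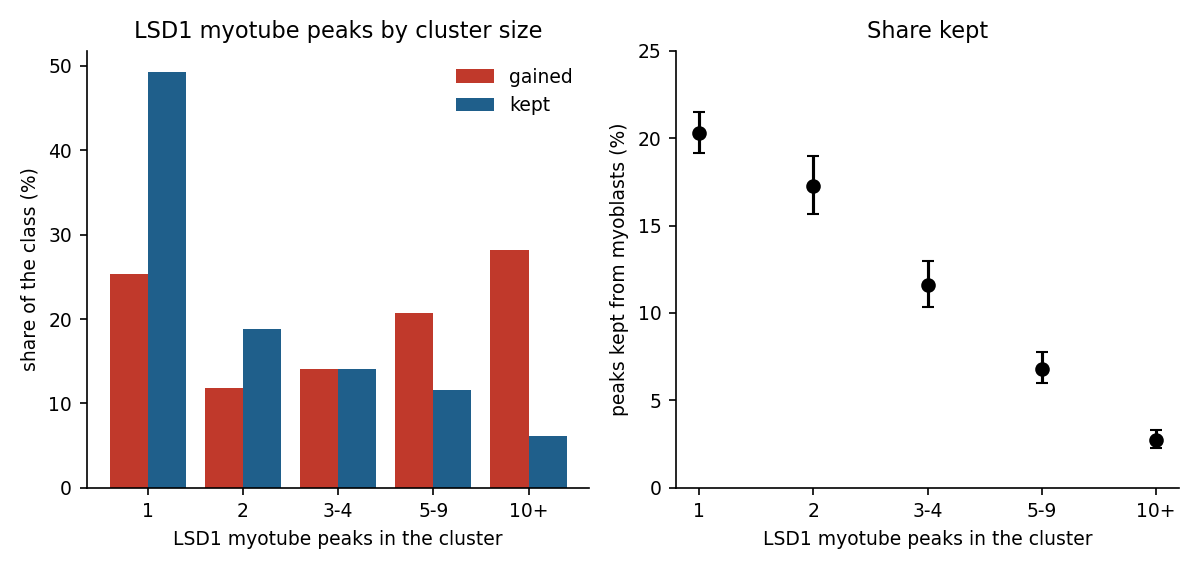
Left, share of gained (red) and kept (blue) LSD1 myotube peaks (y axis, % of the class) by the number of peaks in their cluster (x axis). Right, share of myotube peaks kept from myoblasts (y axis, %, bars are exact binomial 95% intervals) by the same cluster sizes, with 20.3% for lone peaks and 2.76% for clusters of 10 or more.

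The largest clusters were long tracts with little LSD1 before differentiation. The one with most gained peaks, at chr16:92607122-92819454 (build mm9, as all coordinates here), held 84 myotube peaks, 83 of them gained, that covered 59.5% of its 212.3 kb; 3 myoblast peaks covered 0.39% of it. At chr3:55082277-55270696, 81 gained peaks covered 42.0% of 188.4 kb, and no LSD1 peak of myoblasts and no ING1 peak of either state was present. At chr15:27742713-27955127, 74 gained peaks and 1 kept peak covered 77.0% of 212.4 kb, and Menin of myoblasts covered 31.5%. The clusters at chr5:119012637-119166307 and at chr8:122806745-122969127 held 67 and 66 peaks, all gained, with no LSD1 or ING1 peak of myoblasts. These 5 tracts were nearly free of MLL3, which covered 0.13% to 2.21% of each.

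MLL3 covered less of the largest clusters. MLL3 peaks of myoblasts covered 23.3% of the total span of clusters with 5 to 9 LSD1 peaks, 22.8% with 10 to 19, 12.3% with 20 to 39 and 3.99% with 40 or more, against 6.77% of the autosomal span. Across the 16 largest clusters the median cover was 0.97% and the highest 41.5%. Menin coverage was 25.7%, 21.1%, 19.6% and 12.6% in the same order of sizes, against 2.83% of the autosomal span. LSD1 of myotubes covered 29.3%, 33.6%, 43.6% and 51.4% of them, and LSD1 of myoblasts 1.38%, 0.82%, 0.51% and 0.11%.

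Kept peaks sat at the ends of clusters. Among clusters of 5 or more peaks with exactly 1 kept peak, the kept peak was the first or last in 192 of 231 (83.1%, exact interval 77.7 to 87.7), where an even placement over the peaks of each cluster would give 26.4%. It was at the left end in 92 clusters and at the right end in 100. In clusters of 10 or more the count was 61 of 71 (85.9%, with 14.0% for even placement). The share exceeded that of even placement on all 19 autosomes, and was 84.8% with clusters joined at 5 kb and 74.5% at 20 kb. Over all 335 kept peaks in clusters of 5 or more, including clusters with several, 70.1% were at an end, with 25.6% for even placement.

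The other factors were then read along the 192 clusters with the kept peak at an end. The first place there is by choice a kept peak and the others are gained peaks, and over all myotube peaks ING1 lay at 13.0% of gained and 90.3% of kept peaks, Sin3A at 16.2% and 94.8%, and Wdr5 at 20.5% and 92.0%. The step between the first and second place therefore repeats the difference between the classes. In the 192 clusters with the kept peak at an end, which spanned a median of 21.0 kb, ING1 of myotubes lay at 94.3% of the kept peaks, at 18.8% of the next LSD1 peaks, at 4.17% of the third and at 1.56% of the fourth. Sin3A lay at 98.4%, 27.1%, 5.73% and 3.12% of the same places, and Wdr5 of myoblasts at 92.7%, 30.2%, 13.5% and 9.90%. Menin lay at 99.5%, 75.5%, 54.2% and 37.5%. MLL3 was lowest at the kept peak, with 24.0%, and lay at 31.2%, 35.4%, 41.7% and 37.0% of the peaks at places 2 to 5. At the far end, which is the fifth peak in clusters of 5, ING1 was found at 2.08% of peaks, Sin3A at 3.65%, Wdr5 at 7.81%, Menin at 35.9% and MLL3 at 36.5%. The kept end peak had a median width of 870 bp, places 2 to 5 had 685 to 730 bp and the far end peak had 618.5 bp.

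**Figure D4:**
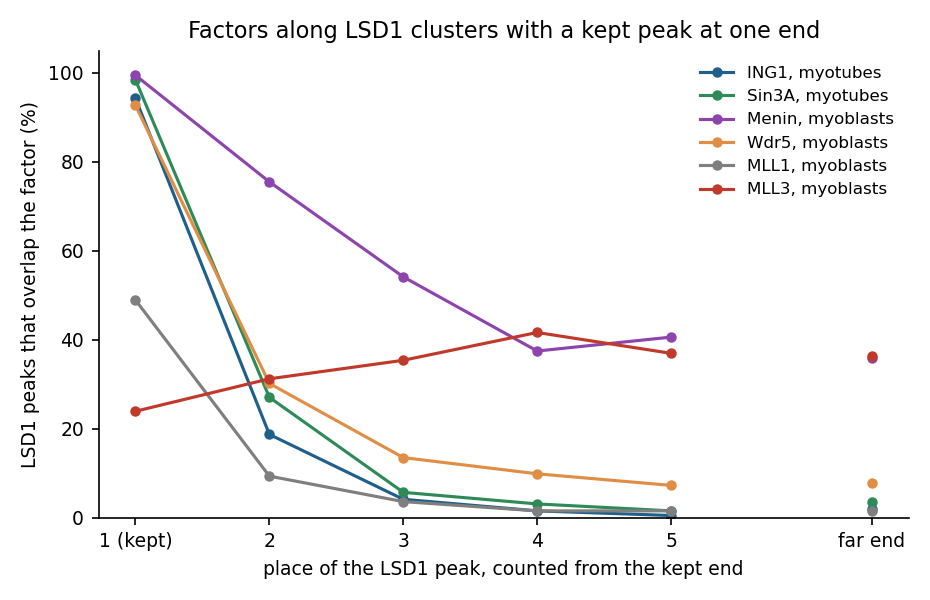
Share of LSD1 myotube peaks that overlap each other factor (y axis, %) by place in the cluster, counted from the kept peak at its end (x axis), for the 192 clusters of 5 or more peaks with a single kept peak at an end. ING1 and Sin3A drop from 94.3% and 98.4% at the kept peak to 1.56% and 3.12% at the fourth, while MLL3 has 24.0% at the kept peak, 41.7% at the fourth and 36.5% at the far end.

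Clusters without any kept peak also had more ING1, Sin3A and Wdr5 at their ends. In clusters of 5 or more with no kept peak, ING1 of myotubes lay at 17.2% of the end peaks and 1.62% of the inner peaks. Sin3A lay at 20.4% of end and 3.76% of inner peaks, and Wdr5 of myoblasts at 21.1% and 8.39%. Menin lay at 37.9% and 23.5%. MLL3 differed from its course in the clusters with a kept end, with 21.7% at end and 19.05% at inner peaks. Widths differed too: the end peaks were the narrower, with a median of 630 bp against 701 bp for inner peaks, and 58.3% of inner and 42.5% of end peaks met none of the 7 lists.

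The classes differed in how many other lists they met, readouts that the definition did not use. The 7 lists were ING1 in both states, Sin3A in myotubes, and Menin, Wdr5, MLL1 and MLL3 in myoblasts. Most thus came from myoblasts, where gained sites by definition had no LSD1 peak, and how far this shaped the counts was not tested. Gained peaks met a median of 1 of the 7 other lists and kept myotube peaks 5. At least 5 lists were met by 9.59% of gained and 78.9% of kept myotube peaks, and by 56.5% of lost and 75.7% of kept myoblast peaks. None was met by 6031 gained peaks (41.7%) and by 2 kept ones, and the gained share was the higher on all 19 autosomes. The share of myotube LSD1 peaks that were kept was 0.03% of 6033 where no other list was present, 15.1% of 642 at 3 lists, 46.7% of 1498 at 5 and 71.0% of 169 at all 7. For myoblast LSD1 peaks it was 30.5% of 410 at 3 lists, 49.7% of 1541 at 5 and 64.8% of 162 at all 7.

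Gained and kept sites also met different sets of factors. After no list at all, the commonest states of a gained peak were MLL3 alone (2261 peaks, 15.6%), Menin alone (1696, 11.7%) and both of them (830, 5.74%). The commonest of a kept myotube peak was ING1 of both states with Sin3A, Menin and Wdr5 (502 peaks, 26.6%), and next the same set with MLL1 (492, 26.0%). The MLL1 libraries carry MLL1 as their antibody in the labels but a source name that reads Menin, so values of MLL1 rest on the antibody label. These were also the commonest sets at lost peaks, at 19.2% and 15.4%, and at kept myoblast peaks, at 27.3% and 23.8%. MLL3 overlapped 26.2% of gained and 21.6% of kept myotube peaks, gained being higher on 16 of 19 autosomes, and 19.6% of lost and 19.5% of kept myoblast peaks.

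Single replicate lists of the other factors gave the same order. In each of the 14 replicate lists a larger share of kept than of gained myotube peaks was met, and a larger share of kept than of lost myoblast peaks. The levels depended on the length of the list: Sin3A replicate 1, with 9270 peaks, lay at 13.7% of gained and 91.7% of kept peaks, and Sin3A replicate 2, with 426 peaks, at 0.59% and 6.24%. The shares of lost and kept myoblast peaks were 15.3% and 26.4% for ING1 myotube replicate 1 and 0.66% and 1.85% for replicate 3, which held 122 peaks.

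The 5 widest peaks of each class illustrate these arrangements. The widest gained peak, at chr15:76000658-76020456, was separated by 162 bp from the second widest kept peak, at 76020619 to 76029074, in a 60.2 kb cluster of 12 peaks. The gained peak had no ING1 of myotubes and Sin3A over 9.73% of its length, while the kept peak had ING1 over 15.1%, Sin3A over 45.9% and Menin over its whole length. The gained peaks at chr15:27906686-27920295, at chr18:32564931-32577639, at chr15:76948025-76959251 and at chr3:121139151-121150162 lay in clusters of 75, 14, 29 and 6 peaks. None of the 5 overlapped ING1 of myotubes or MLL1, which lay at 13.0% and 6.90% of all gained peaks. Their nearest myoblast LSD1 peaks were 5.43 to 34.8 kb away, against a median of 55.9 kb over all gained peaks.

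LSD1 of myoblasts covered a minor share of each of the 5 widest kept myotube peaks. The widest, at chr19:46578925-46588060, was covered by LSD1 of myoblasts over 5.52%, and that on chromosome 15 described above over 3.76%. At chr19:5795944-5801879, 3 myoblast peaks covered 29.6%, and ING1 of myotubes covered 73.6% and MLL3 the whole. At chr1:94728261-94733521 LSD1 of myoblasts covered 23.7%, and at chr8:86132082-86137321 it covered 17.1%. Seen from myoblasts, the widest kept peaks were covered by LSD1 of myotubes over 30.5% at chr2:13496618-13498324 and over 32.0% at chr13:29043537-29045205. At chr6:86798676-86800325 the cover was 58.3%, at chr11:58790613-58792188 it was complete, and at chr6:51417943-51419497 it was 17.8%. Each of these 5 met ING1 and Sin3A of myotubes, as did 88.4% (ING1) and 93.6% (Sin3A) of all kept myoblast peaks.

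Each of the 5 widest lost peaks overlapped ING1 of myotubes, as did 72.9% of all lost and 88.4% of all kept myoblast peaks. At chr8:87493043-87494454 ING1 of myotubes covered 95.9% and Sin3A was not listed. At chr9:123021631-123022962, at chr11:69394334-69395583 and at chr2:90585751-90586989, ING1 of myotubes covered 66.1%, 49.8% and 79.7% and Sin3A 81.2%, 62.3% and 98.2%. At chr15:78757302-78758511 both covered the whole peak, and a myotube LSD1 peak lay 1.57 kb away. For the lost peaks on chromosomes 9 and 11 the nearest myotube LSD1 peak was 146.0 and 51.1 kb away.

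Large clusters were few in the myoblast list as a whole. Clusters of 2 or more contained 31.0% of lost and 30.3% of kept myoblast peaks. At chr1:82281664-82286136, 4 of 5 myoblast peaks were lost, LSD1 of myotubes covered 14.8% and Menin the whole stretch. At chr3:58328244-58330542 all 4 were lost, LSD1 of myotubes was not listed, and Menin again covered the whole. The next clusters held 3 lost peaks each, at chr17:34046580-34077290 and at chr9:107456975-107472030. The largest myoblast cluster, also with 4 lost peaks, lay at chr9:3000022-3035961, where all 9 lists begin on that chromosome. Its 11 myoblast peaks had a median width of 173 bp, LSD1 of myotubes covered 68.7% of it and MLL1 78.6%, and ING1, Sin3A, Menin and Wdr5 peaks within it had medians of 22 to 45 bp. Without the peaks of this chromosome end, 5.74% of kept myotube peaks lay in clusters of 10 or more, against 6.14% with them.

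All autosomes had more LSD1 peaks in myotubes than in myoblasts, from 2.37 times as many on chromosome 14 to 4.98 times on chromosome 8 and 4.95 times on chromosome 15. Per Mb between the first and last peak of any list, gained peaks were densest on chromosome 15 (12.4), chromosome 11 (11.3) and chromosome 8 (10.1) and sparsest on chromosome 14 (2.78) and chromosome 7 (3.25). Kept myotube peaks were densest on chromosome 11 (1.85 per Mb) and chromosome 15 (1.25) and sparsest on chromosome 7 (0.37). Chromosome 15 held 8.61% of gained and 6.61% of kept myotube peaks on 4.17% of the span, and 5.91% of lost and 6.70% of kept myoblast peaks. The share of myoblast peaks kept ran from 32.5% on chromosome 16 (interval 24.0 to 41.9, 114 peaks) to 53.6% on chromosome 10 (47.2 to 59.9, 252 peaks). Chromosome 16 also had the largest share of gained peaks in clusters of 10 or more, 44.6%, and chromosome 14 the smallest, 14.3%.

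**Figure D5:**
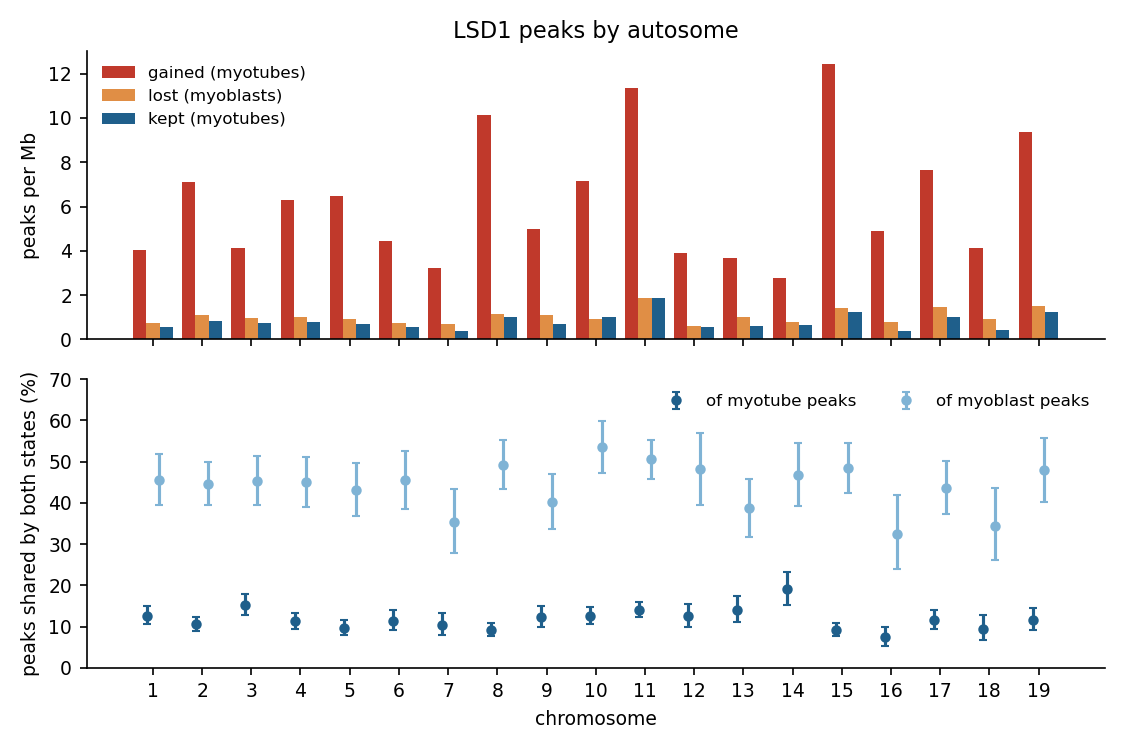
Top, gained, lost and kept LSD1 peaks per Mb of span (y axis) on each of the 19 autosomes (x axis). Bottom, share of myotube peaks (dark) and of myoblast peaks (light) that were kept (y axis, %, bars are exact binomial 95% intervals), with the lowest myotube value, 7.36%, on chromosome 16 and the highest myoblast value, 53.6%, on chromosome 10.

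In 1 Mb windows, most gained peaks shared a window with a myoblast LSD1 peak. Gained peaks fell in 1581 windows, kept myotube peaks in 939 and lost peaks in 1083. Of the 1581 windows with gained peaks, 383 had no myoblast LSD1 peak, and these held 12.1% of gained peaks. Of the 201 windows with 20 or more gained peaks, 15 had no myoblast peak. The shares that an even placement would give were not computed for windows. Counts of gained and kept peaks were related across the 1756 windows with any LSD1 peak (Spearman rho 0.46, a description over windows that share the libraries).

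ING1 was mapped in both states through a Flag tag in cells ectopically expressing it. Its classes were like those of LSD1 in width, and in myotubes unlike them in spacing. Of 9570 ING1 myotube peaks 3592 (37.5%) were not shared with myoblasts, and of 8114 myoblast peaks 5861 (72.2%) were shared. Unshared ING1 peaks were narrower than shared ones, with medians of 572 and 794 bp in myotubes and 562 and 815 bp in myoblasts. Neighbours within 10 kb were found for 42.9% of the ING1 peaks new in myotubes and 41.6% of the shared ones, against 74.7% and 50.7% for LSD1, and clusters of 10 or more held 1.06% and 0.50% of them. In myoblasts 38.5% of unshared and 36.3% of shared ING1 peaks had such a neighbour, against 31.0% of lost and 30.3% of kept LSD1 peaks. The myotube lists differed in length, with 16361 LSD1 peaks, and how far this shaped the shares was not tested. Whether LSD1 differed from ING1 in spacing beyond replicate error could not be tested with a single LSD1 list per state.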

How the data were processed

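The authors deposited 1 list of peak boundaries for LSD1 in each state, with the chromosome and the left and right ends in base pairs, per the file headers; both file names call the lists merged, and how they were merged is not given in the sources used here. The build mm9 and the tools bedtools 2.17.0, Bowtie 0.12.9 and SAMtools 0.1.19 are named per the submitters' processing notes, with no role. No source used here gives the peak caller or its threshold. Left boundaries were taken as 0-based, and printed starts are 1-based. Chromosomes X and M were left out.

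Overlaps, gaps, clusters and shares were computed with Python 3.11.15, numpy 2.4.6, pandas 2.3.3 and scipy 1.17.1, and the functions were checked on simulated intervals. Pooled lists of ING1, Sin3A, Menin, Wdr5 and MLL1, their 14 replicate lists and the MLL3 list served as other readouts. Intervals are exact binomial, or for medians order statistics, at 95%. Depth is unknown. No test was made, because each state had 1 list. Named regions are the 5 widest peaks per class and the 5 clusters with most gained or lost peaks. The definition of the members and the measures were chosen with earlier results of these data known. Cluster size, the place of kept peaks in clusters and peaks at no other list were chosen after the data had been seen. Alternatives were other overlap rules, wider or equally long lists, joined neighbours, chromosome X and other cluster gaps. Regions are given by coordinates, because no mm9 annotation or genome was used here.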

Additional observations from a re-analysis of the deposited data

Results flagged for a closer look

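LSD1 peaks outside the autosomes entered no comparison above. Chromosome X held 143 myotube and 23 myoblast peaks, with median widths of 604 and 316 bp, and 3 myoblast peaks there were kept. The mitochondrial genome held 7 myotube peaks, the widest 724 bp, and no myoblast peak. No input list was analysed here, so these counts have no control beside them.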

How the results depend on the processing

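No paired analysis was possible because LSD1 had 1 list per state and no replicate number. Of 96 values recomputed under 8 alternatives, 38 stayed within the interval of the value reported and 58 left it. Those of cluster size, cluster ends and peaks at no other list were chosen after seeing the data. Shares are of myotube peaks gained and of myoblast peaks kept. With overlap of 50% of the shorter peak, 89.6% were gained, 40.6% kept, and 21.1% of gained peaks lay within 10 kb of a myoblast peak. With peaks within 500 bp counted as shared these were 86.4%, 52.7% and 18.2%, kept medians were 700 bp in myotubes and 415 bp in myoblasts, 54.0% of kept myotube peaks had a neighbour within 10 kb, and 42.7% of gained peaks met no other list.

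With the wider 50% of each list, 90.7% were gained and 35.6% kept. Medians were 876 bp (gained), 918 bp (kept, myotubes), 521 bp (lost) and 585 bp (kept, myoblasts). Neighbours within 10 kb were found for 68.5% of gained and 40.3% of kept peaks, and 12.6% of gained peaks lay within 10 kb of a myoblast peak. Clusters of 10 or more held 19.1% of gained and 2.35% of kept peaks, and 38.0% and 0 met no other list. Of the 56 clusters of 5 or more with exactly 1 kept peak, 91.1% had it at an end.

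Using only the 4419 widest myotube peaks, 84.9% were gained and 17.4% kept. Medians were 1162, 1119, 385 and 456.5 bp in the same order. Neighbours were found for 70.5% of gained and 30.5% of kept peaks, and 22.0% of gained peaks lay near a myoblast peak. Chromosome 15 held 9.51% of gained peaks. Clusters of 10 or more held 18.1% and 1.95%, and no list was met by 40.5% and 0. Of the 37 clusters of 5 or more with exactly 1 kept peak, 94.6% had it at an end.

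With neighbours within 1 kb joined, 85.2% were gained and 47.6% kept. Medians were 637, 806, 397 and 501 bp. Neighbours were found for 63.1% and 40.7%, 17.0% of gained peaks lay near a myoblast peak, and chromosome 15 held 8.00% of them. Clusters of 10 or more held 9.77% and 1.70%, and 37.8% of gained peaks met no other list. Of the clusters of 5 or more with exactly 1 kept peak, 92.2% had it at an end. With clusters joined at 5 kb, those of 10 or more held 19.3% of gained and 3.33% of kept peaks. With clusters joined at 20 kb they held 35.9% and 9.89%, and 74.5% of clusters of 5 or more with exactly 1 kept peak had it at an end. Adding chromosome X left all 15 values within their intervals. Gained peaks remained the more clustered class and the one more often at no other list in each setting, and the width order of gained and kept peaks turned in the equally long lists; the cause was not tested. Depth is unknown for both lists, so how weak a site either could list cannot be given.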

Other observations

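Along the chromosomes all classes leaned towards the right end. With each autosome divided into 5 equal parts from left to right, the last part held 28.0% of gained and 27.7% of kept myotube peaks, 27.2% of lost and 27.9% of kept myoblast peaks. The first part held 16.7%, 14.8%, 15.6% and 14.7%. The 5 longest stretches between neighbouring myotube LSD1 peaks were 9.62 to 14.1 Mb.

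Kept peaks within clusters tended to be the wider ones. In the 431 clusters of 3 or more peaks with 1 kept peak, that peak was wider than the median of its gained neighbours in 290 (67.3%), with a median ratio of 1.24. These values share the libraries of the comparisons above and were looked at after them.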
